A study of Mus musculus with 10 samples.

Results

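Imprinted genes are expressed from the copy inherited from 1 parent, and the 37 examined here are those outside the H19, Kcnq1 and Dlk1-Meg3 domains. They were chosen by name, and every probe set whose single gene symbol in the platform annotation was 1 of these names was taken as a member. Of the 37 genes, 32 had such a probe set, with 79 probe sets among the 45037 non-control probe sets of the array. Slc22a3, Zrsr1, Peg13, Kcnk9 and Htr2a had none and are not analysed here. The genes fall into 17 loci, and 16 are classed here as maternally and 21 as paternally expressed. That class was taken from general knowledge and for some genes holds in certain tissues only. The arrays read total RNA and cannot tell the parental copies apart.

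The RNA came from germinal vesicle oocytes of the mouse, grown cells that still hold an intact nucleus and wait in the first meiotic prophase. Wild type was represented by 5 arrays and CTCF-depleted by another 5. CTCF is a DNA-binding zinc finger factor that acts at insulators and at the bases of chromosome loops. No strain, age, pool size or means of depletion was given in the labels used here. Whether replicates came from separate animals is not stated either; p-values then reflect array-to-array spread alone, which may be technical.

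Imprinting rests on DNA methylation that is laid down differently in eggs and sperm and is then kept in the embryo. In the oocyte both copies of a gene carry, or are acquiring, the maternal pattern. The promoters of many paternally expressed genes are therefore methylated by the end of oocyte growth, and transcription running across such a region is known to be needed for its methylation at some loci. CTCF binds several imprinted control regions, the one beside H19 being the best known, and binds the unmethylated copy there. An oocyte holds no paternal copy with a sperm-derived mark, so a level in these arrays is not a readout of imprinted expression.

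The depleted arrays matched their labels. Ctcf read 1001 ± 76.0 (SD, n = 5) on the wild-type and 36.3 ± 33.7 on the depleted arrays by its brighter probe set, or -5.01 ± 0.31 (SE) as a log2 fold change (limma adjusted p = 1.59e-08). All 14 measured oocyte markers, among them the egg coat genes Zp1 to Zp3 and Gdf9, lay above the control probe sets on all 10 arrays, and none was called. The control level of an array was its highest signal among 27 Bacillus probe sets, which mouse RNA lacks, and it ran from 4.75 to 10.9. Wild-type replicate 2 stood apart: its summed signal over 19 granulosa and cumulus markers was 2994, against 1245 to 1408 on the other wild-type arrays and 1269 to 1602 on the depleted arrays. Of these markers 12 were above the control level on all 10 arrays. Of the 18 tested, 3 were called higher in depleted oocytes, Fshr, Nr5a2 and Ptgs2, or 16.7% against 7.26% of all genes. By contrast, 12 of the 18 had a negative log2 fold change and 6 a positive one, with a median of -0.090. Summed signals of 10 theca and stroma markers were 97.9 to 119 in wild type and 78.5 to 108 in depleted oocytes. Those of 12 blood, immune and endothelial markers were 163 to 209 and 158 to 205. Results are therefore given without wild-type replicate 2 where they change, and the part of other cells in them was not tested.

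The promoters of the genes on which the results turn are shown first. Neither methylation nor CTCF binding was measured here. Whether these promoters carry imprinted methylation is therefore not known from these data. They are RefSeq windows on assembly GRCm38.p6, from 250 bases before to 50 after a start site, written 5′ to 3′ on the gene's strand. The array files name no build. Capitals mark CpG dinucleotides, the site of DNA methylation. Ppp1r9a has a pair of start sites on the plus strand, at chr6:4903061-4903360 with 48 CpG and at chr6:4902725-4903024 with 10.
Ppp1r9a, first window: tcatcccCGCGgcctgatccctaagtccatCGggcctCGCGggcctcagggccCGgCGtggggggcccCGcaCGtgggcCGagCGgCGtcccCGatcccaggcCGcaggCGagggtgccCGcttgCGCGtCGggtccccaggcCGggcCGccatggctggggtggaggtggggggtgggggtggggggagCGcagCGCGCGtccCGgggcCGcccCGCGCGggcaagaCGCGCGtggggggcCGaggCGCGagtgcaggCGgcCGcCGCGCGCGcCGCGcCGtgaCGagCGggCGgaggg
Ppp1r9a, second window: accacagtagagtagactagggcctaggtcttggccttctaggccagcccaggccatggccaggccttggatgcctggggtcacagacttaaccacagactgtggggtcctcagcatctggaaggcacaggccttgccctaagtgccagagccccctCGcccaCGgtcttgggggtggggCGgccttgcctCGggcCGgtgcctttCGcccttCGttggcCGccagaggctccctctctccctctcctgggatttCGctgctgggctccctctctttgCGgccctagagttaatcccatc

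Grb10 has a pair of start sites on the minus strand, at chr11:12037371-12037670 with 45 CpG and at chr11:12027922-12028221 with 9. The Peg3 window, chr7:6730370-6730669 on the minus strand, holds 13 CpG and shares 263 bases with that of Usp29, which is read from the opposite strand.
Grb10, first window: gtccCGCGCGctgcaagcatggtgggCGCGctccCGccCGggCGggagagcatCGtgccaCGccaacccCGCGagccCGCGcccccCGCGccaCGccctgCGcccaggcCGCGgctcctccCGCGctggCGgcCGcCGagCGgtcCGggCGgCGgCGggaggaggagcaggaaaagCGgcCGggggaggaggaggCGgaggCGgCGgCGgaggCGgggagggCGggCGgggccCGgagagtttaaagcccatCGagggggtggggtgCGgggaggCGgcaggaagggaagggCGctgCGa
Grb10, second window: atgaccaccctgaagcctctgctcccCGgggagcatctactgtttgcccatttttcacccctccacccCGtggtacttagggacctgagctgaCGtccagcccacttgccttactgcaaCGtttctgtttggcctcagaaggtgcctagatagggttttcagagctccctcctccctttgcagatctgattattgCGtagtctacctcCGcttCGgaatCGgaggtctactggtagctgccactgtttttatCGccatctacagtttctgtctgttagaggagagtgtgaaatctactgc
Peg3: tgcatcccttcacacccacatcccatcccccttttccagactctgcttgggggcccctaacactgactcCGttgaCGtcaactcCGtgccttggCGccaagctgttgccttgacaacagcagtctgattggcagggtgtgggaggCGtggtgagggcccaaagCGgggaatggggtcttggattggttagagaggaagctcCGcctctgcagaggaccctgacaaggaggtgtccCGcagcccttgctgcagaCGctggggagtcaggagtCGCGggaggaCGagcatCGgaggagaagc

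Promoter windows were found for 30 of the 37 genes, 44 windows in all. Taking the window with the most CpG of each gene, members held a median of 17 CpG (lowest 3, highest 48), against 8 over all 27025 genes with a window. The 13 maternally expressed genes had a median of 21 CpG and the 17 paternally expressed genes 15. Ppp1r9a and Grb10, the genes called below, held the largest numbers among members: 98.6% and 97.8% of all genes had fewer. Igf2r held 34 and Ube3a 29, and neither was called, while Airn held only 3. Whether the number of CpG goes with being called was not tested.

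**Figure D1:**
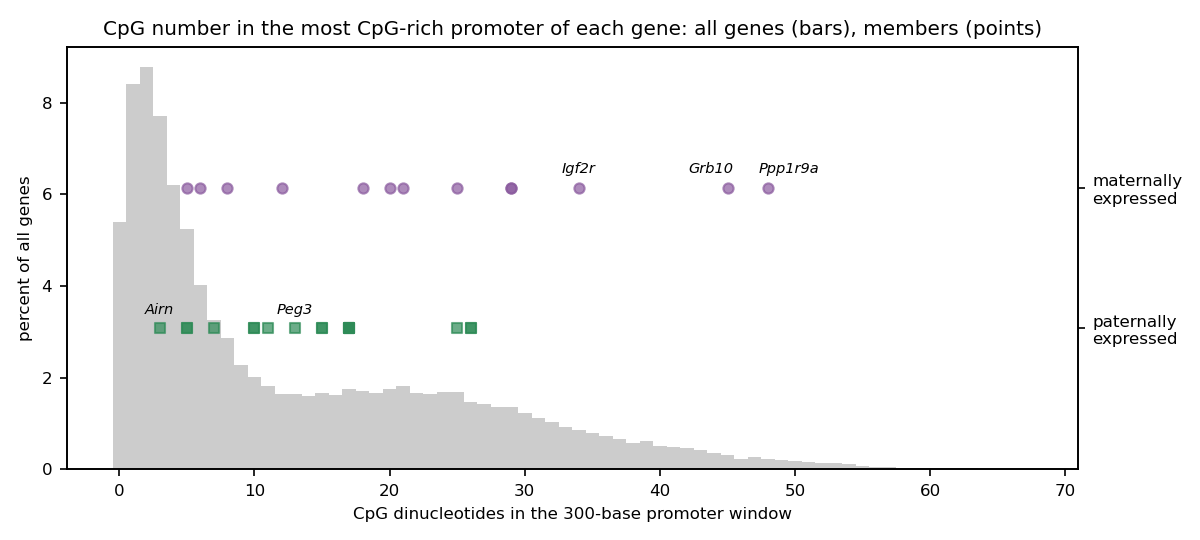
The x axis counts CpG dinucleotides in the most CpG-rich 300-base promoter window of each gene; bars give the percent of all 27025 genes, and points are the 13 maternally and 17 paternally expressed members, placed in rows by class. Ppp1r9a at 48 and Grb10 at 45 lie at the right end, and no paternally expressed member is above 26.

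Of the 44 member windows 1 held the core of the CTCF motif on either strand, against 3.21% of all 32851 windows, and 0 held a longer form of it, which 0.0365% of all windows hold. The match lay in the window of H13, which encodes signal peptide peptidase, at chr2:152669211-152669510 on the plus strand, from 71 to 60 bases before the start site. It is in capitals here.
H13: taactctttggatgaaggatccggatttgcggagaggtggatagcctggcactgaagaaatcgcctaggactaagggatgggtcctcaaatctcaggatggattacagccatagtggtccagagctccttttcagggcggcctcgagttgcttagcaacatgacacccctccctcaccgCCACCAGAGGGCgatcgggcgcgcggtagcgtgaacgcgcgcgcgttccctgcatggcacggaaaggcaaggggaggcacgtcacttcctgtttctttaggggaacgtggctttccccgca

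The letters TGCCGC, which the imprint-protecting zinc finger protein ZFP57 recognises when methylated, were in 29.5% of member windows and 11.6% of all windows, on either strand. They were in windows of 12 of the 30 genes, 6 of 13 maternally and 6 of 17 paternally expressed. The motif holds a CpG, and member windows are richer in CpG, so the shares are not independent of that count. The search for these letters was added after the array values were seen. Such matches describe letters and show no binding.

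Most members were detected in wild-type oocytes, at about the rate of all genes. By the brightest probe set of each gene, 21 of 32 members (65.6%) were above the control level on all 5 wild-type arrays, against 62.0% of 18193 genes with a probe set. Of the maternally expressed members 9 of 13 were, and of the paternally expressed members 12 of 19. On all 10 arrays 17 members (53.1%) were above it, against 59.1% of all genes. The maternally expressed genes that were not above the control level on every wild-type array were Zim1, Klf14, Tfpi2 and Calcr. The paternally expressed ones were Ndn, Sgce, Ddc, Snrpn, Peg10, Slc38a4 and Mkrn3.

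**Figure D2:**
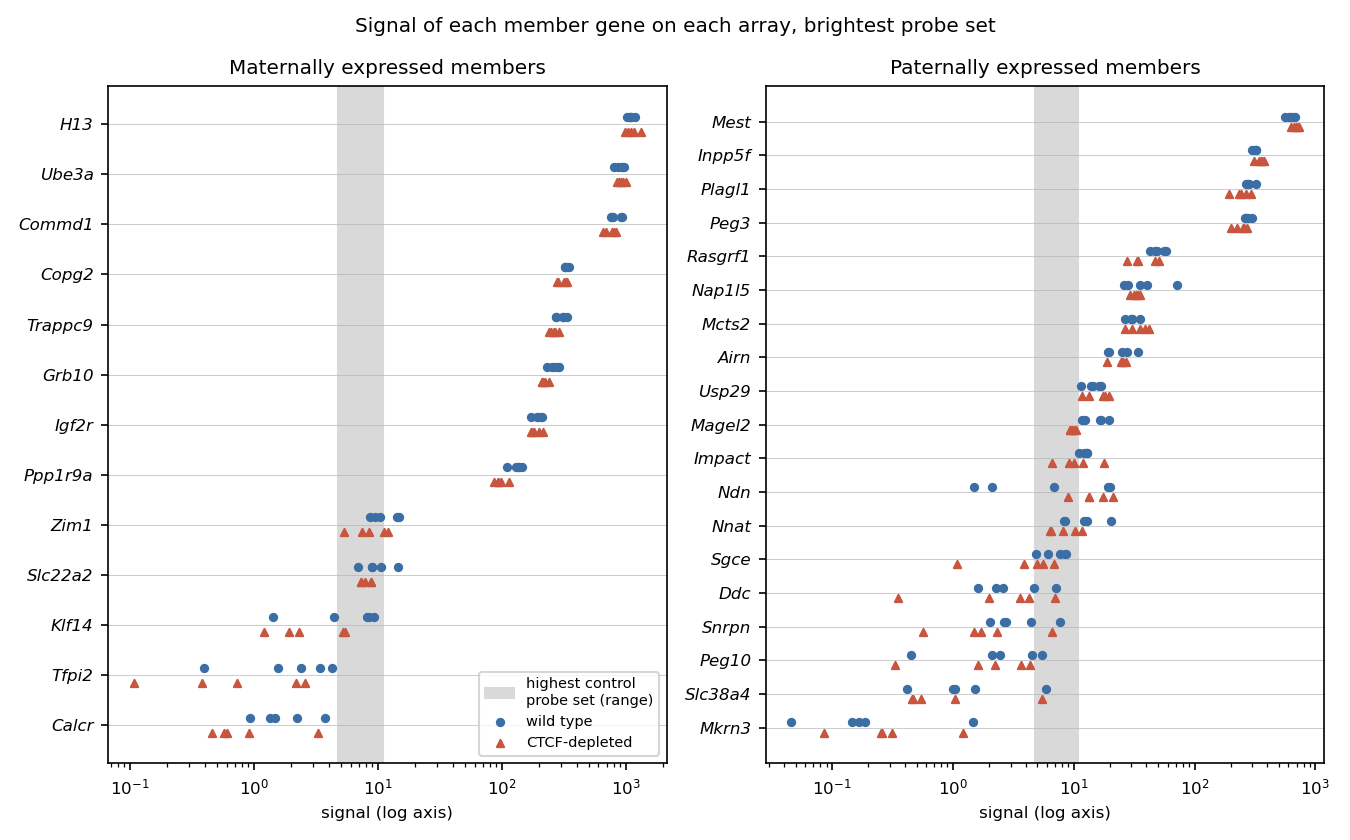
Each row is a member gene by its brightest probe set; the x axis is the signal on a log scale, circles are the 5 wild-type arrays, triangles the 5 CTCF-depleted arrays, and the grey band spans the arrays' control levels, 4.75 to 10.9. Levels of different probe sets are not comparable, but each gene's distance from the band shows whether it was detected: H13, Ube3a and Mest lie far to the right of it, and Mkrn3 and Calcr to its left.

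On depletion of CTCF, Ppp1r9a and Grb10 fell by less than 2-fold, and members were called lower at about the rate of all genes. The Grb10 call held in only 12 of the 23 alternatives described below, against 22 of 23 for the brightest Ppp1r9a probe set. Of the 32 genes, 24 passed the filter on mean signal and were tested; 0 were called higher and 2 lower (limma, Benjamini-Hochberg adjusted p under 0.05). An adjusted p under 0.05 is the meaning of called throughout. That is 8.33% lower, close to the 9.12% of all 13811 tested genes called lower, while 7.26% of all genes were called higher and 16.4% were called in either direction. A further 7 members had an unadjusted p under 0.05 and were not called. Of 51 tested member probe sets 0 were called higher and 4 lower, 7.84% against 7.12% of all 27022, of which 5.48% were called higher. Both called genes are maternally expressed, 2 of 10 tested, against 0 of 14 paternally expressed genes. The difference between the classes was not tested. Paternally expressed Peg3 was called lower when those of its probe sets that passed the filter were averaged (limma adjusted p = 0.0113). The median log2 fold change was -0.19 over the 24 members, -0.17 over the maternally and -0.19 over the paternally expressed, against -0.017 over all genes. The 17 members above the control level on all 10 arrays had log2 fold changes from -0.43 to 0.16. In bulk RNA of oocytes a lower level per cell and a smaller share of RNA cannot be told apart.

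**Figure D3:**
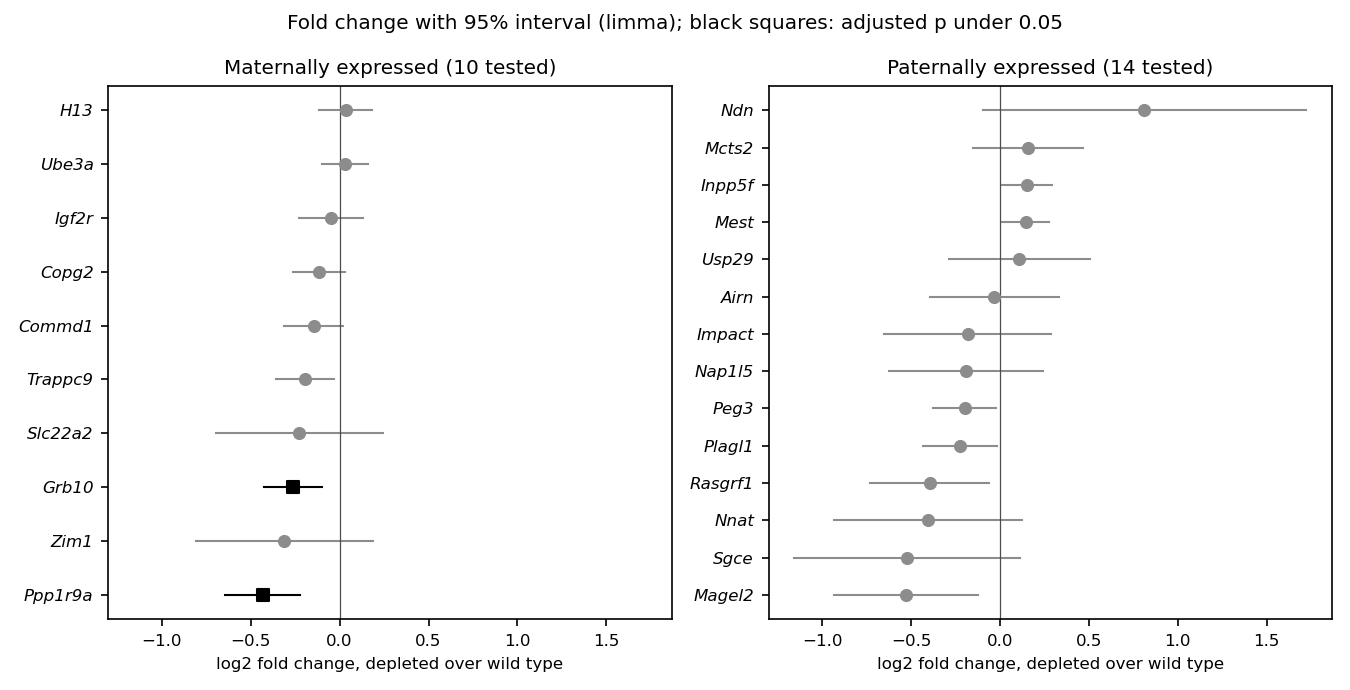
Points are log2 fold changes, depleted over wild type, of the 24 tested members by their brightest probe set, with 95% intervals from limma as lines; black squares mark Ppp1r9a and Grb10, the only genes with an adjusted p under 0.05. Most points lie within 0.5 of 0, and the dim genes Ndn, Sgce, Zim1 and Nnat have the widest intervals.

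Ppp1r9a encodes neurabin, an actin-binding protein that brings protein phosphatase 1 to its targets, and lies beside Peg10 and Sgce. Its brightest probe set read 145, 109, 138, 135 and 129 on wild-type replicates 1 to 5 and 92.3, 98.6, 114, 85.8 and 93.1 on depleted replicates 1 to 5. The groups touch only at wild-type replicate 2 and depleted replicate 3. The log2 fold change was -0.43 ± 0.10 (SE; limma adjusted p = 0.00807), with a two-sided exact permutation p of 0.0159. A dimmer probe set read 115, 104, 137, 112 and 103 in wild type and 72.4, 72.4, 80.1, 72.3 and 73.6 in depleted oocytes. Here every depleted array lay below every wild-type array, with a log2 fold change of -0.60 ± 0.10 (adjusted p = 0.000456; exact permutation p = 0.00794, the smallest that 5 against 5 arrays allow). Both probe sets stayed called without any single array and under each change of scaling. The other 3 probe sets were dim and not called, at -0.87, -0.30 and 0.076. With the mean over the gene's probe sets that passed the filter the call was lost (adjusted p = 0.0631).

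The other genes of that locus gave little signal. Sgce, which encodes epsilon-sarcoglycan of the muscle and nerve cell membrane, read 4.85 to 8.69 in wild type and 1.09 to 6.87 in depleted oocytes. It was not called. Its arrays were mostly at or under the control level, with 2 wild-type and 1 depleted array above it. Peg10, a retrotransposon-derived gene needed in the placenta, Calcr, the calcitonin receptor, and Tfpi2, a protease inhibitor, were above the control level on no array and were not tested. The flanking gene after the locus, Pon1, a serum esterase, averaged 17.2 ± 4.49 (SD, n = 5) in wild type and 9.63 ± 0.928 in depleted oocytes, and fell by 0.68 ± 0.20 (SE) on the log2 scale (limma adjusted p = 0.034). Only 3 of its depleted arrays were above the control level, so the size of that fall is uncertain. On the other side Vps50 had 0.0021 and was not called.

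Grb10 encodes an adaptor that binds the insulin receptor and restrains growth. It read 229, 268, 254, 284 and 286 on wild-type replicates 1 to 5 and 209, 212, 222, 213 and 240.0 on depleted replicates 1 to 5. Only wild-type replicate 1 lay within the depleted range. The log2 fold change was -0.26 ± 0.08 (SE; limma adjusted p = 0.0317; two-sided exact permutation p = 0.0159), a 1.20-fold fall. Its other probe sets, not called, gave -0.22 and -0.22. The call was lost without wild-type replicate 2, 4 or 5 (adjusted p = 0.0674, 0.0846 and 0.0886) or depleted replicate 1, 2 or 4 (0.0663, 0.052 and 0.0721), and with arrays centred on their medians (log2 fold change -0.18, adjusted p = 0.263). It was also lost with the 3-prime over 5-prime control signal, a sign of RNA quality, as a covariate (-0.25, adjusted p = 0.0724), without an intensity trend in the variance (adjusted p = 0.0609) and with the mean over its probe sets (-0.23, adjusted p = 0.244). Next to it, Ddc, which makes dopamine and serotonin from their precursors, was above the control level on 1 depleted array only and was not tested. The flanking gene Cobl, an actin nucleator, rose from 156 ± 29.8 to 233 ± 18.8 (SD, n = 5), with a log2 fold change of 0.59 ± 0.11 (SE; adjusted p = 0.00222), and Fignl1 on the other side had 0.033 and was not called.

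Peg3 encodes a zinc finger protein and is paternally expressed. Its brightest probe set read 278, 261, 266, 302 and 269 in wild type and 252, 270.1, 256, 226 and 200 in depleted oocytes. Depleted replicate 2 lay within the wild-type range, and the probe set was not called (log2 fold change -0.20 ± 0.08, SE; limma adjusted p = 0.146). With the mean over only those of its probe sets that passed the filter, Peg3 was called lower (-0.27, adjusted p = 0.0113). Peg3 had 5 probe sets, and only a dimmer one was called. Those other than it and the brightest are not shown here. The called one read 71.9, 68.0, 79.2, 77.5 and 69.2 against 50.3, 54.7, 52.5, 62.8 and 67.1, which separated the groups. Its log2 fold change was -0.34 ± 0.11, with an adjusted p of 0.0488. It stayed called in only 1 of 10 fits that left out an array, the one without depleted replicate 5; in the others the adjusted p ran from 0.055 to 0.115. Usp29, a ubiquitin protease family gene that shares the promoter region, read 11.5 to 16.9 in wild type and 11.7 to 19.7 in depleted oocytes. Its log2 fold change was 0.11 (95% interval -0.29 to 0.51) and it was not called. Zim1, a maternally expressed zinc finger gene, had -0.31 (-0.81 to 0.19).

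**Figure D4:**
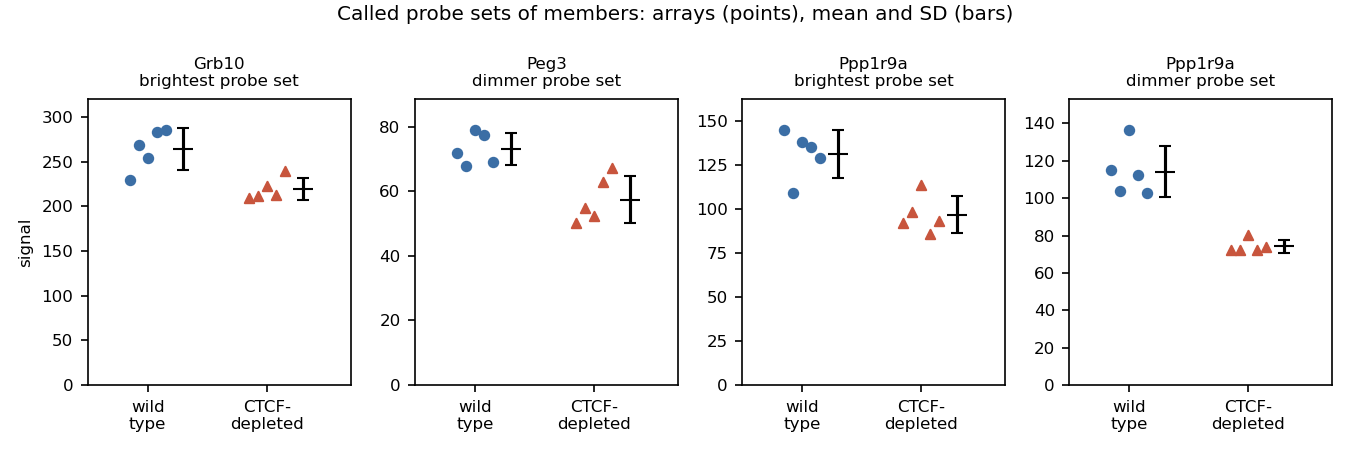
The y axis is the signal of each of the 4 member probe sets with an adjusted p under 0.05, starting at 0; points are the 5 wild-type and 5 CTCF-depleted arrays, and bars give the mean and SD. The groups separate on the dimmer probe sets of Ppp1r9a and Peg3 and overlap on the brightest probe sets of Ppp1r9a and Grb10.

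The groups did not overlap on 4 of 51 tested member probe sets (7.84%), against 11.1% of all tested probe sets. These were a dimmer probe set each of Ppp1r9a, Peg3 and H13 and the probe set of Magel2. By brightest probe sets Magel2 was the only gene of 24 (4.17%), against 14.2% of all tested genes.

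The genes of the Prader-Willi and Angelman syndrome locus were not called. Ube3a, the maternally expressed ubiquitin ligase, read 801 to 957 in wild type, with a median of 925, and 846 to 999 in depleted oocytes, with a median of 905. The groups overlapped, and its log2 fold change was 0.031 (95% interval -0.10 to 0.16). Magel2, a MAGE family gene, read 16.7, 11.7, 19.4, 12.5 and 16.5 in wild type and 9.30, 9.33, 9.63, 10.01 and 10.4 in depleted oocytes. All depleted arrays were lower and 3 of them were above the control level, but the gene was not called (log2 fold change -0.53 ± 0.19, SE; limma adjusted p = 0.086; exact permutation p = 0.00794); without an intensity trend in the variance it was called (adjusted p = 0.0209). Ndn, which encodes necdin, was uneven in wild type, at 6.91, 19.1, 19.8, 1.51 and 2.09, against 21.3, 13.3, 17.6, 9.04 and 13.3 in depleted oocytes. Wild-type replicates 2 and 3 were as high as the depleted arrays and the other wild-type arrays lower than all of them. Its log2 fold change was 0.81 ± 0.43 (SE) and it was not called (limma adjusted p = 0.256). The value was 0.50 without wild-type replicate 4, 0.54 without wild-type replicate 5 and 0.31 with a log offset of 16. The single-symbol probe set of Snrpn, a splicing factor gene, read 2.66, 2.04, 4.42, 2.77 and 7.66 in wild type and 1.703, 1.496, 2.33, 6.64 and 0.560 in depleted oocytes. It was above the control level on no array and was not tested. A further 6 probe sets name Snurf beside Snrpn and were left out by the rule for members, so no level of Snrpn is drawn from these values. Mkrn3, a RING finger gene, was above the control level on no array.

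Igf2r, the receptor that clears insulin-like growth factor 2, showed no called change. Its brightest probe set read 205, 191, 209.8, 194 and 172 in wild type and 215, 174, 199, 180 and 172 in depleted oocytes. The ranges overlapped almost fully, with a log2 fold change of -0.048 (95% interval -0.23 to 0.13), while its other probe set gave 0.18 (-0.01 to 0.38). Airn, the paternally expressed noncoding RNA that runs antisense across Igf2r, read 19.3 to 34.0 against 18.98 to 27.2. Its log2 fold change was -0.032 (-0.39 to 0.33), and both genes were positive under median centring, at 0.038 and 0.054. Slc22a2, an organic cation transporter of the same cluster, read 14.5, 6.94, 8.87, 10.6 and 8.91 against 8.79, 7.33, 8.75, 7.23 and 7.79, close to the control level. It was not called (-0.23 ± 0.22, SE; adjusted p = 0.584).

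Mest is a paternally expressed gene for a hydrolase-like protein. It read 641, 621, 610.4, 676 and 564 in wild type and 693, 668, 628, 732 and 722 in depleted oocytes. The depleted arrays tended to the upper end but overlapped the wild-type arrays, and the gene was not called (0.15 ± 0.06, SE; limma adjusted p = 0.149). Copg2, a coatomer subunit gene next to it, had -0.12 (95% interval -0.26 to 0.03). Klf14, a transcription factor gene, was above the control level on 2 wild-type arrays only and was not tested. The flanking gene Cep41, a centrosomal protein gene, fell from 915 ± 47.2 to 712 ± 51.0 (SD, n = 5), with -0.36 ± 0.06 (SE; adjusted p = 0.000618), and Mkln1 on the other side had 0.061 and was not called.

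Plagl1, Rasgrf1, Nnat and Inpp5f, paternally expressed genes at separate loci, were not called. Plagl1, a growth-restraining zinc finger gene, read 284, 322, 272, 269 and 279 in wild type and 295, 193, 244, 265 and 232 in depleted oocytes. Wild-type replicate 2 was its highest array, and depleted replicate 1 lay within the wild-type range (-0.22 ± 0.10, SE; limma adjusted p = 0.157). Rasgrf1, a Ras exchange factor gene, read 48.7, 57.9, 47.4, 42.8 and 56.4 against 34.3, 27.8, 50.4, 47.5 and 33.1. Here 2 depleted arrays fell among the wild-type ones (-0.39 ± 0.16; adjusted p = 0.123). Nnat, a membrane proteolipid gene of neural tissue, read 12.2, 8.32, 12.9, 20.4 and 8.52 against 6.48, 11.6, 10.2, 8.20 and 6.38, with 3 depleted arrays above the control level (-0.40 ± 0.25; adjusted p = 0.343). Inpp5f, a phosphoinositide phosphatase gene, read 300 to 325 against 311 to 379 and had 0.15 (95% interval 0.01 to 0.29). It was not called as deposited (adjusted p = 0.162) but was called higher under median centring (0.24, adjusted p = 0.0397).

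Impact encodes a regulator of the amino acid starvation response. It read 11.0, 12.9, 12.8, 12.3 and 12.9 in wild type and 9.10, 6.56, 17.8, 10.002 and 11.97 in depleted oocytes. The depleted arrays were more scattered and 3 of them were above the control level (-0.18 ± 0.22, SE; limma adjusted p = 0.675). The log2 fold change was -0.049 without depleted replicate 2 and -0.34 without depleted replicate 3. The flanking gene Osbpl1a, a lipid transport protein gene, fell from 142 ± 11.7 to 112 ± 10.7 (SD, n = 5), with -0.34 ± 0.09 (SE; adjusted p = 0.0229). Nap1l5, a nucleosome assembly protein family gene, read 71.0 on wild-type replicate 2, against 26.02 to 40.1 on the other wild-type arrays and 29.5 to 35.7 on depleted arrays. Its log2 fold change was -0.19, and 0.029 without that array, which also had the high granulosa marker signal.

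The remaining pairs are genes nested within hosts. H13 and the retrogene Mcts2 inside it had log2 fold changes of 0.034 (95% interval -0.11 to 0.18) and 0.16 (-0.15 to 0.47), and the Mcts2 signal may include that of its near-identical parent gene Mcts1. Commd1, which acts in copper handling and hosts Zrsr1, read 764 to 929 in wild type and 654 to 830.0 in depleted oocytes, with -0.15 (-0.31 to 0.02). Trappc9, a vesicle tethering gene that hosts Peg13, averaged 299 ± 26.2 (SD, n = 5) in wild type and 261 ± 18.8 in depleted oocytes, with -0.19 ± 0.08 (SE; limma adjusted p = 0.116). None of these 4 was called. Slc38a4, an amino acid transporter gene, was above the control level on 1 depleted array and was not tested. Several genes had a dimmer probe set of the opposite sign, none of them called: Rasgrf1 with 0.37, Ube3a with -0.24 and -0.040, Commd1 with 0.044, Usp29 with -0.035 and Inpp5f with -0.0092.

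Genes that flank the loci were called at about the rate of all genes. Atp10a and Peg12, which flank the Prader-Willi and Angelman syndrome locus, are also in the list of further imprinted genes described below. The nearest protein-coding gene on either side of each locus was taken from the RefSeq gene order, and 25 of 34 passed the filter. Of these 1 was called higher, Cobl, and 3 lower, Cep41, Osbpl1a and Pon1, in both directions 4 of 25, against 16.4% of all genes. Their median log2 fold change was 0.023. Of the members beside them, Ppp1r9a and Grb10 were called lower, and Mest and Impact were not called.

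**Figure D5:**
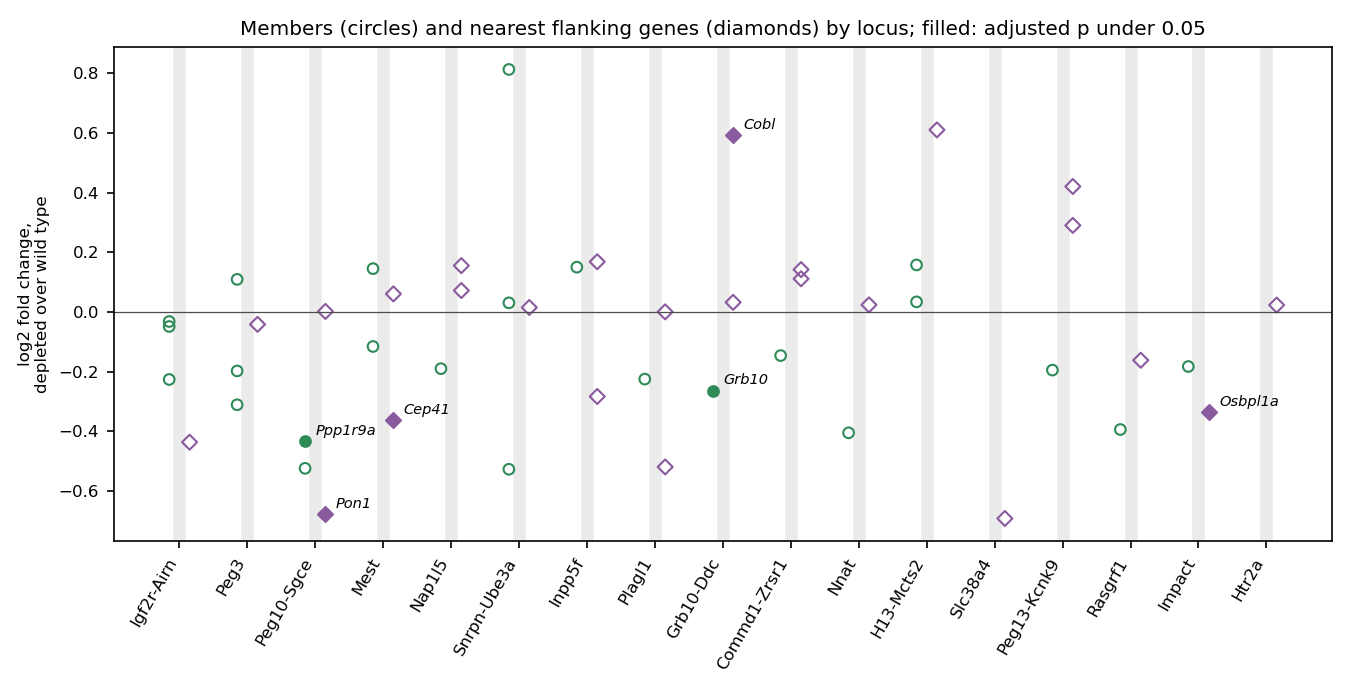
Log2 fold changes, depleted over wild type, are shown for tested members (circles) and tested flanking genes (diamonds) at each of the 17 loci on the x axis; filled symbols have an adjusted p under 0.05. Ppp1r9a and Pon1 lie below 0 at the Peg10-Sgce locus, and Grb10 below and Cobl above 0 at theirs.

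Of a list of 35 genes whose proteins set or protect imprints, the RNA of 31 was measured, and all 31 were tested. Of these 3 were called higher and 3 lower, or 9.68% each against 7.26% and 9.12% of all genes, with a median log2 fold change of -0.017. The falls include Ctcf itself. Kdm1a, a lysine demethylase, fell from 474 ± 35.7 to 202 ± 22.1 (SD, n = 5), with -1.22 ± 0.08 (SE; limma adjusted p = 2.6e-08). Zfp445, a zinc finger protein that protects imprints with ZFP57, rose from 510.0 ± 43.0 to 685 ± 28.8, with 0.43 ± 0.06 (adjusted p = 0.000242). Zfp42 rose from 12.8 ± 2.57 to 28.2 ± 7.14 (0.99 ± 0.20; adjusted p = 0.00305), a gene near the control level in wild type. A list of 36 further imprinted genes came from the H19, Kcnq1 and Dlk1-Meg3 domains and from elsewhere in the genome. Some lie beside member loci, such as Asb4, Blcap and Peg12. Of the 36 genes, 31 had a probe set and 24 were tested. Of those tested 2 were called higher and 3 lower, or 8.33% and 12.5% against 7.26% and 9.12% of all genes. The median log2 fold change of the 24 was -0.096.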

How the data were processed

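Titles gave each array's group and number. The authors deposited intensity values on a linear scale, with 1 signal for every probe set on each array. MAS5 is the tool listed in the submitters' processing notes, without version or settings. Precision is limited by the number of arrays.

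The 64 control probe sets were left out. An offset of 2.47 (the 25th percentile over the table) was added before log2, so fold changes of dim genes come out too small. Probe sets under the 40th percentile of mean log2 value (a signal of about 5.13) were left out, and 27022 were fitted in R 4.3.3 with limma 3.58.1 (lmFit, eBayes with an intensity trend) and Benjamini-Hochberg adjustment over all of them. A gene was read by its brightest probe set; 34945 probe sets had 1 symbol, 932 several and 9160 none. The fit was tested on simulated data. All members are accounted for; values on every array are given for members called by any probe set, for the 6 uncalled members above the control level on all arrays of a group with the largest changes, and for Igf2r, Snrpn, Peg3, Mest and Impact where tested. Of the flanking genes and of the genes that set or protect imprints, up to 4 called genes with the smallest adjusted p are named. The called genes among the further imprinted genes are not named. Members and lists were chosen with earlier results of these data known. Alternatives were other offsets, filters, scalings, variance models, array weights, covariates, thresholds, the mean over probe sets and leaving out each array. The mean over probe sets was taken for each gene over only those that passed the filter.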

Additional observations from a re-analysis of the deposited data

Results flagged for a closer look

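Of 52 groups of 5 arrays examined for the tested members, 2 held an array whose gap to its nearest neighbour exceeded 0.71 of the group's range, a limit that chance passes in about 1 of 20 groups. Plagl1 read 322 on wild-type replicate 2, against 269 to 284 on the other wild-type arrays, a gap of 0.714 of the range. The dimmer called probe set of Ppp1r9a read 80.1 on depleted replicate 3, against 72.3 to 73.6 on the other depleted arrays, a gap of 0.835 of the range, and still lay below every wild-type array.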

How the results depend on the processing

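Over the alternatives run, the number of member genes called lower was 1 to 2, and 1 under median centring, with RNA integrity (3-prime over 5-prime control signal) as covariate, at an adjusted p under 0.01 and with the mean over probe sets, where it was Peg3; leaving out single arrays gave 1 to 2. For member probe sets called lower it was 2 under median centring, with the covariate and at an adjusted p under 0.01, and 2 to 4 with single arrays left out. The number called higher was 1, Inpp5f, under median centring, by gene and by probe set, and 0 under every other alternative run. The median over members stayed negative, from -0.19 to -0.10. Over all genes, calls were 1003 higher and 1260 lower as deposited and 1418 and 709 under median centring, and the median of all genes moved from -0.017 to 0.069. Grb10 was called in 12 of 23 alternatives, the brightest Ppp1r9a probe set in 22 of 23, its dimmer one in 22 of 22 and the dimmer Peg3 probe set in 5 of 22; where a call was lost the cause was not tested. Log2 fold changes near 0 turned direction, none of them called. Igf2r was 0.038 under median centring and 0.067 over its tested probe sets. Airn was 0.054 under median centring, 0.040 under quantile normalization and -0.11 to 0.075 with single arrays left out. Ube3a was -0.060 over its tested probe sets and -0.0082 to 0.058 with single arrays left out. H13 was -0.060 with the covariate, -0.18 over its probe sets and -0.029 to 0.079 with single arrays left out, and Nap1l5 -0.31 to 0.029. Same-numbered arrays did not deviate together (correlations 0.0024 to 0.051, and 2 of 5 wild-type arrays correlated best with their own number), so the numbers were not taken as pairs; with the replicate block 0 member genes were higher and 2 lower, and 1056 and 1298 of all genes.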

Other observations

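The 6 probe sets of H13 did not read alike. The brightest had a log2 fold change of 0.034, and the dimmer ones had -0.51, -0.13, -0.029, 0.041 and -0.50. On the last of these the wild-type arrays read 12.3, 11.7, 11.8, 12.5 and 14.6 and the depleted arrays 9.22, 5.98, 7.81, 8.35 and 9.74, so that the groups did not overlap, but it was not called (limma adjusted p = 0.117; two-sided exact permutation p = 0.00794). H13 is known to make transcripts that end at different sites; the tables used here do not say which part of the gene each probe set reads. For Ndn, 8 probe sets were present and the 3 tested ones gave 0.81, 0.52 and 0.47, all positive and none called.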
